A study of Mus musculus with 10 samples.

Results

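Blood vessels of the embryonic brain are tubes of endothelial cells wrapped by pericytes, and the RNA of both cell types was read here from whole mouse telencephalon through 39 marker genes. The list named 40 symbols, 30 of endothelium and 10 of pericytes, and a gene was a member when its symbol had a row in the deposited table. All 30 endothelial symbols and 9 of the pericyte symbols had one, so the members are 39 of 14796 named genes, and Higd1b was not analysed here.

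Total RNA of the telencephalon, the forebrain region that forms cerebral cortex and basal ganglia, was sequenced at embryonic day 12 from 10 mouse samples. Polr1a codes for the large catalytic subunit of RNA polymerase I, which transcribes ribosomal RNA genes. The null group (2 samples) carried a null allele of Polr1a, the missense group (3 samples) an allele that changes the protein at p.C1559F, and 5 wild-type samples carried neither. Null 1, null 2 and 2 wild types have titles beginning with Polr_2048, here the null set, and missense 1 to 3 and 3 wild types have titles beginning with Polr_2138, here the missense set. The labels do not give the zygosity of a sample, its strain or its litter, or say what the title number stands for, and they do not say that samples came from separate embryos. The p-values therefore measure the spread between these samples, which may be technical. The study asked which genes differ between wild type and each allele, and mutants were set against wild types that share their title number.

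As background, vessels enter the embryonic forebrain from the plexus on its surface and branch toward the ventricle. Neural progenitors release Vegfa and Wnt7 ligands, endothelial cells answer through Vegf receptors and Frizzled receptors, and endothelial Pdgfb draws in pericytes that carry Pdgfrb. The endothelium of the brain forms tight junctions and transporters early, which set up the blood-brain barrier. In whole tissue, fewer or more vessel cells and less or more RNA per cell cannot be told apart.

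The values were read as log2 CPM (counts corrected for library size), so that a step of 1 is a doubling, with a floor of -3.16 in the table. CPM are not divided by gene length, and no label states the unit. Levels are therefore compared between samples for a gene and not between genes. Back-transformed totals of the named genes were nearly the same in all samples, between 1000453 and 1000891, so the sequencing depth is unknown. Correlations between samples ran from 0.938 to 0.964. The targeted gene Polr1a was at 5.38 in both wild types of the null set and at 4.99 and 4.82 in the null samples, a change of -0.48 (limma adjusted p = 0.563). It lay between 5.51 and 5.64 in the missense-set wild types and between 5.09 and 5.79 in missense. The labels do not say which part of the gene the null allele lacks, so its RNA level checks the labels only in part. The tissue label was checked on 9 telencephalic genes: Emx1, a transcription factor of the dorsal telencephalon, lay between 5.45 and 5.90 and Dlx1, one of the ventral telencephalon, between 6.62 and 8.16 in the 10 samples. In null 6 of the 9 were lower and 3 higher, with a median of -0.39, and Dlx1, Dlx2 and Gad2 fell in limma. In missense 7 were lower and 2 higher, with a median of -0.25, and 0 passed. The vessel label was checked on defining genes: Pecam1 lay between 4.68 and 5.18, Cdh5 between 5.65 and 6.30 and the pericyte receptor Pdgfrb between 5.60 and 6.27. RNA of these defining genes was thus present in all 10 libraries. Kcnj8, another pericyte gene, was at the floor in 6 of them, and no member stood at the floor in all of them.

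Promoter sequence is shown for the 4 members with the smallest p in the null comparison, as the stretch in which factors of the endothelial transcription programme could bind. Each line gives the 250 bases before an annotated start, from RefSeq on GRCm38.p6, read in the direction of the gene. The deposited table was made on GRCm39, so the sequences were found by gene symbol and not by position. Capitals mark AGGAAG or its reverse complement CTTCCT, which holds the core recognized by ETS factors such as Erg, Fli1 and Ets1, which are themselves members. Slco1c1 lies on the forward strand at chr6:141524104-141524353, the start of Egfl7 shown first on the forward strand at chr2:26580833-26581082 and the start shown next at chr2:26583615-26583864, Eng on the forward strand at chr2:32646345-32646594 and Kdr on the reverse strand at chr5:75978456-75978705.
Slco1c1: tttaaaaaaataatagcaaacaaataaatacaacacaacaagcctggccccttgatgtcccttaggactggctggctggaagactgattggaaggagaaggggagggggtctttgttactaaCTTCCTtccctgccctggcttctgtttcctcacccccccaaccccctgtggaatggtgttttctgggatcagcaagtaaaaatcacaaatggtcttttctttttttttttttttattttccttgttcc
Egfl7, first start: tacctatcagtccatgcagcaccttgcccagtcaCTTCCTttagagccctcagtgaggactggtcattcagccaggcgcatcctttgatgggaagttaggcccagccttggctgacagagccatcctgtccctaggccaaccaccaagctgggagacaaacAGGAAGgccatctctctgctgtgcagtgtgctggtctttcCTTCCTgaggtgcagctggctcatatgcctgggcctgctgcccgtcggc
Egfl7, next start: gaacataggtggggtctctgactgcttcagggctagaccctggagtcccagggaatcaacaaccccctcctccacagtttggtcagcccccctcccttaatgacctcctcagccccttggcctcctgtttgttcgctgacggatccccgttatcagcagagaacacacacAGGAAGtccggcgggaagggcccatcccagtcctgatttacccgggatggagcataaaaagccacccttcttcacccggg
Eng: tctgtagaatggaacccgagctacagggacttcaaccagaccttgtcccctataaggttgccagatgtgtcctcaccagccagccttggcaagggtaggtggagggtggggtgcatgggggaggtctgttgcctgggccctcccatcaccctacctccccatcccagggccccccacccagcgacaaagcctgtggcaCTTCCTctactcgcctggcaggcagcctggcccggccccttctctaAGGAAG
Kdr: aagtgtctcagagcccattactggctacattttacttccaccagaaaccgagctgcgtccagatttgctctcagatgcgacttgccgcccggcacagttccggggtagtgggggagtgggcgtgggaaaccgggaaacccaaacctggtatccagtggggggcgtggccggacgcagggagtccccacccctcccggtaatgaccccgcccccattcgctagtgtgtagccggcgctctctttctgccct

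The motif occurred 3 times before the first start of Egfl7, 1 time before the next, 2 times before Eng and 1 time before Slco1c1. A further start of Egfl7 and the stretch before Kdr held 0. RefSeq sequences matched 23 of the 39 members, with 28 starts, of which 12 (42.9%) held AGGAAG or CTTCCT, against 29.5% of all 32851 promoters of this length. AACAAT or ATTGTT, a core recognized by Sox factors, was in 3 of the 28 (10.7%, against 9.42% of all), before Emcn, Erg and Tek. TGTTTAC or GTAAACA, a forkhead core, was in 0 of the 28, against 3.17% of all. Both strands were searched, and sites of different motifs shared a base in 0 of the 28 stretches. A match describes letters and does not show that a factor binds.

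The null comparison asked how vessel genes differ in telencephalon with a null allele of Polr1a. Most members were at higher levels in the null samples, by a small amount: 36 of 39 had a log2 change above 0 and 3 below, where 54.6% and 45.3% of all genes did, and the median change was 0.28 (1.22-fold) against 0.03 over all genes. Among endothelial genes 29 of 30 were higher, with a median of 0.30, and among pericyte genes 7 of 9, with a median of 0.15. None of the individual changes passed the test. In limma 0 members were higher and 0 lower at an adjusted p under 0.05, where 0.0338% and 0.128% of all genes were. At an unadjusted p under 0.05 there were 6 higher (5.04% of all genes) and 0 lower (3.28% of all genes). In 15 of 39 members (38.5%) both null samples lay above both wild types of their set, which held for 22.9% of all genes, and in 0 members both lay below, against 14.8% of all genes.

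The heat map of members by sample shows that the 2 null samples did not share this equally. Null 2 was the highest of the 4 samples of its set in 29 of 39 members, null 1 in 7, wild type 2 in 3 and wild type 1 in 0. Null 2 lay above null 1 in 31 members, by a median of 0.40. Such ranks were not counted over all genes, so they are not shown to be particular to vessel genes. Relative to the mean of the wild types of the set, the median member stood at 0.51 in null 2 and 0.13 in null 1. The summed level of the 30 endothelial genes was 529 and 541 CPM in the wild types, 603 in null 1 and 764 in null 2. Without null 2, 25 of 39 members were higher and 14 lower, with a median of 0.13, and without null 1, 36 were higher, with a median of 0.51.

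**Figure D1:**
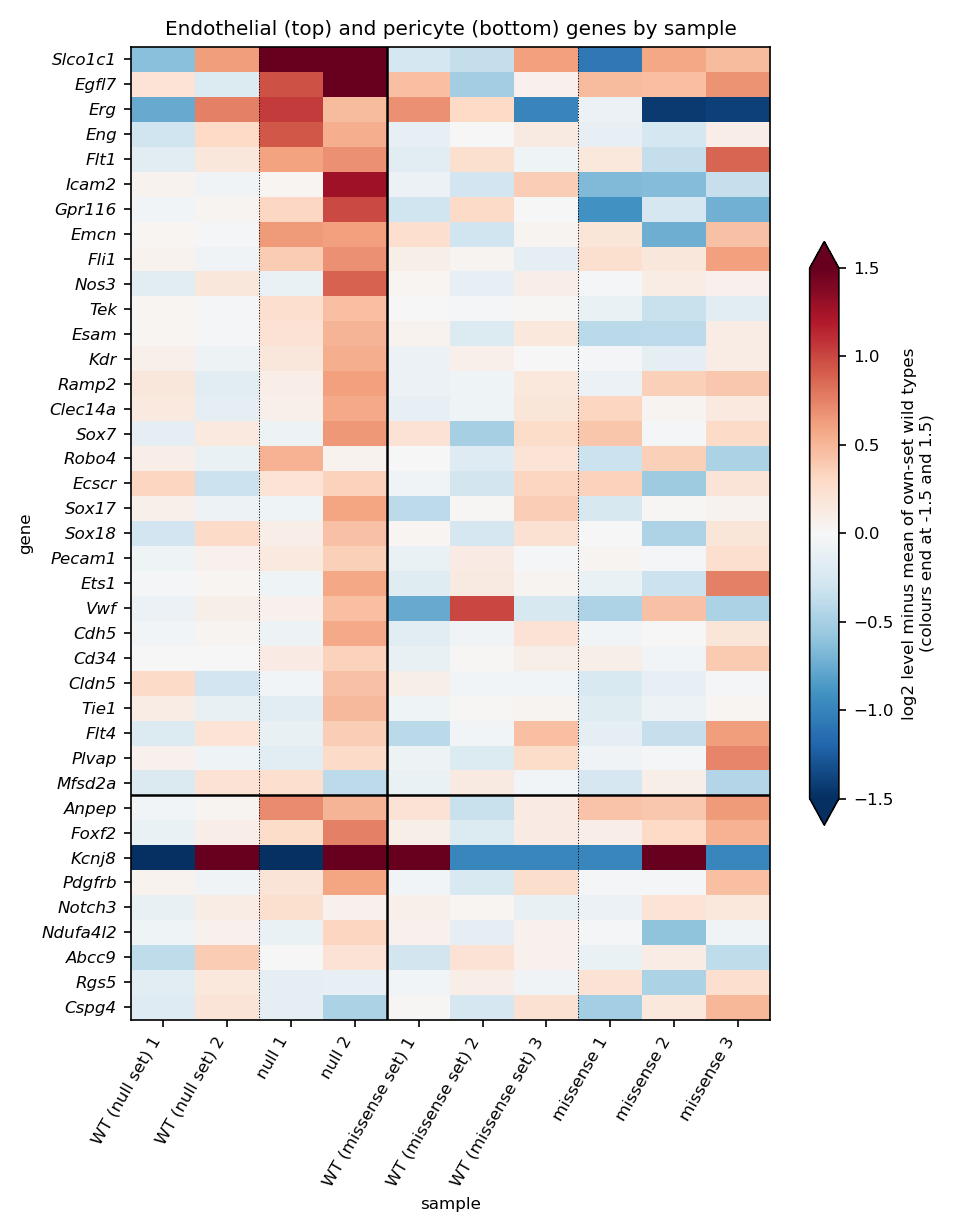
Level of each of the 39 members (rows) in each sample (columns) as log2 CPM minus the mean of the wild types of the same set, endothelial genes above and pericyte genes below the line, sorted within each by the null change; colours end at -1.5 and 1.5. The column of null 2 is red in nearly all endothelial rows, and the missense columns hold both colours.

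Receptors for growth factors and guidance cues were higher in the null samples in 11 of 11 members, with a median of 0.35. Kdr, the main Vegf receptor of endothelium, measured 6.07 and 5.91 in the wild types and 6.16 and 6.53 in the null samples. Both null samples thus lay above both wild types, null 1 by little. The change was 0.35 (SE 0.14, limma adjusted p = 0.535), with 0.17 without null 2 and 0.54 without null 1.

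Flt1, a Vegf receptor that also acts as a decoy, measured 4.08 and 4.43 in the wild types and 4.86 and 4.94 in the null samples, a change of 0.65 with groups apart and null samples close together. Flt4, the receptor for Vegfc, was at 3.05 and 3.46 in wild type and 3.14 and 3.62 in null, and these overlap. Tek, the angiopoietin receptor, was at 3.99 and 3.94 in wild type and at 4.22 and 4.42 in null. Its partner Tie1 was at 4.96 and 4.74 in wild type, and null 1 (4.68) lay below both while null 2 (5.34) lay above both.

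Eng, endoglin, a co-receptor for Tgf-beta and Bmp9 in endothelium, was at 4.28 and 4.87 in the wild types and at 5.51 and 5.12 in the null samples. The groups did not overlap, and here null 1 was the higher of the null samples. The change was 0.74 (SE 0.22, limma adjusted p = 0.348), and 0.44 without wild type 1. Pdgfrb, through which pericytes are recruited, was at 5.70 and 5.60 in wild type and 5.84 and 6.24 in null, a change of 0.39. Notch3, which acts in mural cells and is also expressed by neural progenitors, stayed within 7.77 to 8.12 in the set. The change of Notch3 was 0.15. Robo4, a receptor that stabilizes endothelium, and Ramp2, the partner of the adrenomedullin receptor, had changes of 0.28 and 0.35 with overlapping groups. Gpr116, an adhesion receptor of endothelium, was at 2.47 and 2.56 in wild type and 2.83 and 3.5 in null.

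Transcription factors of endothelium and, in the case of Foxf2, of pericytes were higher in 7 of 7 members, with a median of 0.28. Fli1, an ETS factor of endothelium and blood, was at 3.40 and 3.29 in the wild types and at 3.73 and 4.03 in the null samples, with no overlap and a change of 0.53 (SE 0.23, limma adjusted p = 0.574). Erg, the related ETS factor that maintains endothelial identity, was at 0.30 and 1.82 in wild type and 2.11 and 1.54 in null, near the low end of the table, with overlapping groups and an SE of 0.74. Ets1 was at 5.16 and 5.23 in wild type and at 5.13 and 5.77 in null, so null 1 lay below both wild types. The SoxF factors Sox7, Sox17 and Sox18, which act in arterial and lymphatic specification, had changes of 0.28, 0.27 and 0.27, and each overlapped. Foxf2, a forkhead factor of brain pericytes, was at 3.27 and 3.47 in wild type and 3.64 and 4.12 in null, with no overlap and a change of 0.51.

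Junction and surface genes were higher in 10 of 11 members, with a median of 0.28. Pecam1, the adhesion molecule used to mark all endothelium, was at 4.68 and 4.82 in wild type and 4.90 and 5.11 in null, a change of 0.26. Cdh5, VE-cadherin, was at 5.69 and 5.78 in wild type, at 5.66 in null 1 and at 6.30 in null 2, so that null 1 lay below both wild types and the change was 0.25. Cldn5, the claudin of brain tight junctions, showed wild types far apart, at 4.48 and 3.90, with null samples at 4.15 and 4.63.

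Emcn, a sialomucin of veins and capillaries, was at 3.28 and 3.21 in wild type and 3.88 and 3.86 in null, a change of 0.62 with close replicates in both groups. Its limma adjusted p was 0.709. Cd34, which marks endothelium and blood progenitors, was at 5.40 and 5.38 in wild type and 5.51 and 5.73 in null. Esam was at 3.55 and 3.48 in wild type and 3.73 and 4.02 in null. These 3 genes had groups that did not overlap. Icam2, Clec14a and Ecscr, all surface proteins of endothelium, overlapped, with changes of 0.65, 0.32 and 0.28. Anpep, aminopeptidase N, which marks brain pericytes, was at 2.48 and 2.57 in wild type and 3.23 and 3.03 in null, a change of 0.60 (SE 0.27, limma adjusted p = 0.599). Cspg4, the NG2 proteoglycan of pericytes and oligodendrocyte progenitors, was the one lower surface gene, with a change of -0.31 and overlapping groups.

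Barrier, transport and secreted factors were higher in 5 of 6 members, with a median of 0.33. Egfl7, a secreted protein of endothelium that hosts the microRNA miR-126 in its introns, was at 3.16 and 2.76 in wild type and 3.91 and 4.60 in null. Both null samples lay well above both wild types, a change of 1.29 (SE 0.33, 2.45-fold, limma adjusted p = 0.220). Slco1c1, a thyroid hormone transporter of the barrier, was at the floor of -3.16 in wild type 1, at -1.91 in wild type 2 and at 0.48 and 1.04 in the null samples. Its log2 difference of 3.30 (SE 0.74, limma adjusted p = 0.158) depends on the floor, so no fold is given, and it was 1.19 with 1 CPM added before the log and 1.12 against all 5 wild types as 1 group. The 3 wild types of the missense set had Slco1c1 at 0.83, 0.74 and 1.71, above both null-set wild types and within reach of the null samples.

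Plvap, the diaphragm protein of leaky vessels, which brain endothelium loses as the barrier forms, was at 4.59 and 4.47 in wild type and 4.37 and 4.82 in null. Mfsd2a, the lipid transporter that keeps barrier endothelium from transcytosis, was at 4.12 and 4.55 in wild type and at 4.59 and 3.94 in null, a change of -0.07. Thus neither gene separated the groups, and in each null 1 and null 2 lay on opposite sides of the wild types. Nos3, endothelial nitric oxide synthase, and Vwf, von Willebrand factor, had changes of 0.40 and 0.26 with overlapping groups.

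The remaining pericyte genes showed no separation. Rgs5, a regulator of G-protein signalling, was at 4.44 and 4.75 in wild type and 4.46 and 4.47 in null. Abcc9 and Kcnj8 encode the subunits of a potassium channel of pericytes. Abcc9 had a change of 0.10, and Kcnj8 was at the floor in wild type 1 and null 1 and at 0.97 and 1.77 in the other two, so it gives no usable comparison. Ndufa4l2, a mitochondrial protein of pericytes, was between 0.99 and 1.42 in the set. Without Notch3, the largest contributor and one shared with neural cells, the pericyte genes summed to 108 and 123 CPM in the wild types, 123 in null 1 and 151 in null 2.

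**Figure D2:**
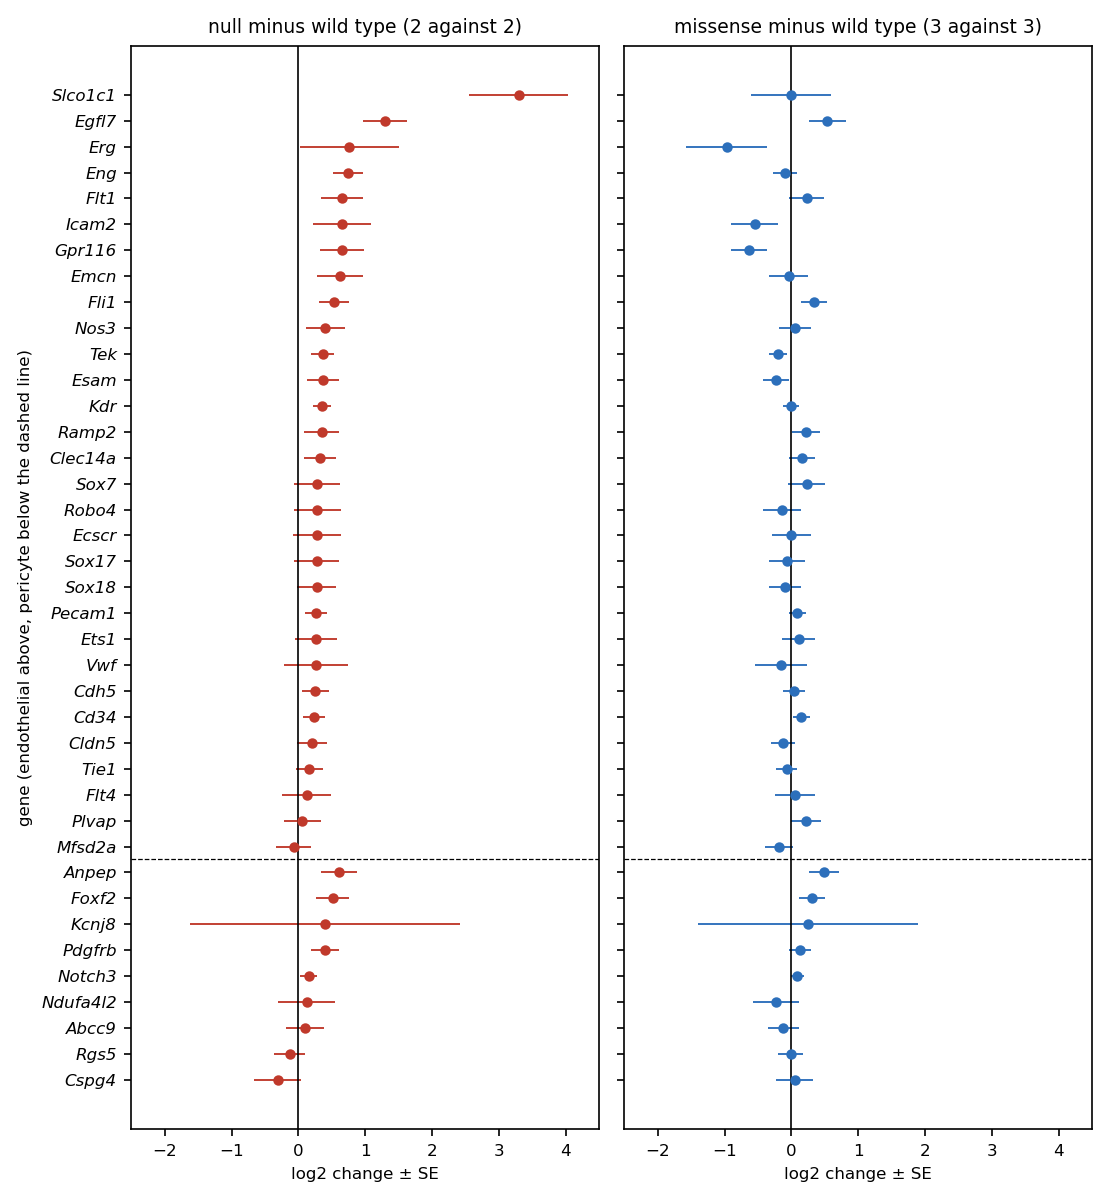
Log2 change of each member (points) with its limma SE (bars) in the null comparison (left) and the missense comparison (right). On the left 36 of 39 points lie to the right of 0, and on the right 19 do.

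The missense comparison asked the same of the p.C1559F allele. Vessel genes showed no common direction: 19 of 39 members were higher and 20 lower, where 54.0% and 46.0% of all genes were, and the median was 0.00 against 0.02 over all genes. In limma 0 members were higher and 0 lower at an adjusted p under 0.05 (0.0135% and 0.00676% of all genes). At an unadjusted p under 0.05 there was 1 higher, Anpep (3.2% of all genes), and 1 lower, Gpr116 (2.33%). The missense samples lay wholly above the wild types of their set in 2 members, Fli1 and Anpep (6.02% of all genes), and wholly below in 2, Tek and Icam2 (4.89%). At 5.13% of the members each, both shares were near those of all genes.

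Anpep was at 2.81, 2.26 and 2.72 in the wild types and 3.02, 3.0 and 3.24 in the missense samples. All 3 missense samples lay above all 3 wild types, with a change of 0.49 (SE 0.22, limma adjusted p = 0.901), close in size to the null change of 0.60 from separate wild types. Fli1 was at 3.40, 3.35 and 3.18 in wild type and 3.55, 3.48 and 3.92 in missense. Its change was 0.34 (SE 0.19, limma adjusted p = 0.902), with missense 3 apart from the others. Egfl7 was at 3.92, 2.94 and 3.53 in wild type and 3.94, 3.91 and 4.14 in missense, where wild type 1 reached the missense range and the others did not. The change of Egfl7 was 0.54 (SE 0.27, limma adjusted p = 0.902). Without wild type 2 the change was 0.28 for Egfl7 and 0.32 for Anpep, and without missense 3 it was 0.20 for Fli1.

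Gpr116 went the other way, from 3.0, 3.58 and 3.30 in wild type to 2.38, 3.04 and 2.57 in missense, a change of -0.63 (SE 0.27, limma adjusted p = 0.884). Missense 2 overlapped wild type 1. Erg was at 1.54, 1.16 and -0.13 in wild type and 0.77, -0.58 and -0.54 in missense, a change of -0.97 (SE 0.61, limma adjusted p = 0.902) with overlap, which was -0.63 without wild type 1 and -1.46 without wild type 3. Tek was at 4.28, 4.25 and 4.30 in wild type and 4.18, 3.94 and 4.11 in missense, a change of -0.20 against very close wild types. Icam2 was at 2.13, 1.93 and 2.59 in wild type and 1.55, 1.57 and 1.87 in missense, a change of -0.55.

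The defining genes had missense changes near 0: 0.09 for Pecam1, 0.04 for Cdh5, -0.01 for Kdr and 0.13 for Pdgfrb, each with an SE between 0.12 and 0.17. Of the 6 barrier, transport and secreted factors 3 were higher and 3 lower, with a median of 0.02: Egfl7 had a change of 0.54, Plvap of 0.22, Nos3 of 0.05, Slco1c1 of -0.01 with a wide SE of 0.60, Vwf of -0.16 and Mfsd2a of -0.19. Missense 3 was the highest of its set in 16 members, among them Pecam1 at 5.18, Flt1 at 5.37, Ets1 at 6.13 and Plvap at 4.93. This rank too was not counted over all genes. The summed endothelial level was 551, 615 and 622 CPM in the wild types and 565, 558 and 694 in the missense samples. Without missense 3, 14 members were higher and 25 lower, with a median of -0.07.

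**Figure D3:**
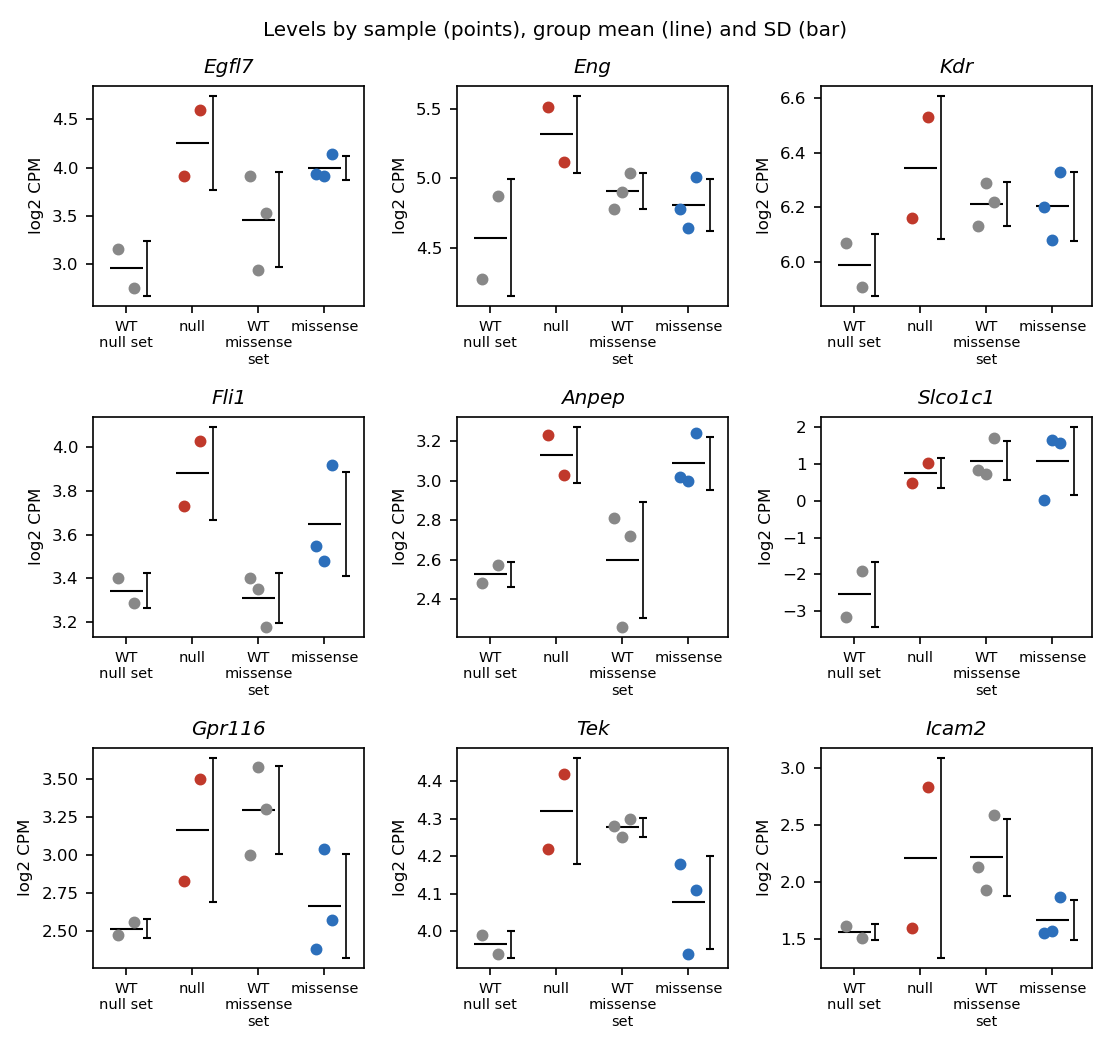
Log2 CPM of 9 members in each sample (points) with the group mean (line) and SD (bar), for 2 wild types and 2 null samples of the null set and 3 wild types and 3 missense samples of the missense set; each panel has its own vertical axis. Fli1 and Anpep lie above the wild types of their set in both mutants, and Slco1c1 is low in the null-set wild types.

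The difference between the mutants was tested as the null change minus the missense change. It was above 0 in 36 of 39 members (51.5% of all genes) and below in 3 (48.5%), with a median of 0.27 against 0.01 over all genes. In limma 0 members passed in either direction at an adjusted p under 0.05 (0.00676% of all genes in each), and 4 were above 0 at an unadjusted p under 0.05 (2.22% of all genes) and 0 below (1.91%). The 4 were Slco1c1 (3.30, SE 0.95), Gpr116 (1.29, SE 0.42), Eng (0.84, SE 0.29) and Tek (0.56, SE 0.22), with limma adjusted p of 0.986 for Slco1c1 and 1 for the others. With 1 CPM added before the log the value for Slco1c1 was 1.16. Icam2 came next, at 1.21 (SE 0.56, limma adjusted p = 1), but at 0.59 without null 2, 1.82 without null 1 and 0.54 with the 5 wild types as 1 group. Eng was at 0.54 without wild type 1 of the null set. For Gpr116 and Tek the null samples stood above and the missense samples below the wild types of their own set on average. Mean Gpr116 was 2.51 in null-set wild types, 3.17 in null, 3.3 in missense-set wild types and 2.66 in missense. With the 5 wild types as 1 group the difference was 0.5 for Gpr116 and 0.25 for Tek. Without null 2 the median difference was 0.11, with 25 of 39 above 0. Across the 39 members, which share libraries and are not independent, the null and missense changes had a Pearson's r of 0.01 and a Spearman's rho of 0.09. Over the 36 members other than Slco1c1, Kcnj8 and Erg these were 0.20 and 0.15, and over all genes 0.10 and 0.21.

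The wild types of the title numbers also differed in vessel genes. In the missense-set wild types 29 of 39 members were above the null-set wild types (53.3% of all genes) and 10 below (46.7%), with a median of 0.18 against 0.02 over all genes. In limma 0 passed at an adjusted p under 0.05 in either direction (0.0473% of all genes in each), and the unadjusted p was under 0.05 for 2 that were higher (4.94% of all genes), Slco1c1 and Gpr116, and for 0 that were lower (2.43%). In 11 members (28.2%) the 3 wild types of the missense set lay above both of the null set, against 13.7% of all genes, and in 0 they lay below (9.76%). The log2 differences were 3.63 for Slco1c1 (SE 0.67, limma adjusted p = 0.179), which again depends on the floor and was 1.42 with 1 CPM added before the log, and 0.78 for Gpr116 (SE 0.30, limma adjusted p = 0.580). Cldn5 differed by 0.42, Esam by 0.42 and Tek by 0.31, with limma adjusted p of 0.700, 0.715 and 0.704. The value for Cldn5 was 0.13 without wild type 2 of the null set and 0.71 without wild type 1. The null and wild-type comparisons share the null-set wild types, so a low level there enters both.

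Set against all 5 wild types, both null samples lay highest in 7 of 39 members (17.9%), against 8.95% of all genes: Flt1, Emcn, Eng, Fli1, Cd34, Anpep and Foxf2. In 0 members did both lie lowest (6.98% of all genes). All 3 missense samples lay above all 5 wild types in Fli1 and Anpep (2.91% of all genes) and below them in 0 members (1.59%). For Kdr the null samples, at 6.16 and 6.53, had null 1 within the 6.13 to 6.29 of the missense-set wild types. For Tek the null samples at 4.22 and 4.42 spanned the 4.25 to 4.30 of those wild types. With the 5 wild types as 1 group, 33 of 39 members were higher in null, with a median of 0.22, and 26 were higher in missense, with a median of 0.08.

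Members differed in how steady they were over the 10 samples. In 24 of 39 the highest and lowest sample were less than 1 log2 unit apart, with Tek (0.48), Pecam1 and Cd34 (each 0.50) and Notch3 (0.51) among the steadiest. Slco1c1 (4.86) and Kcnj8 (4.93) had the widest ranges, being the 2 members with a sample at the floor, followed by Erg (2.69) and Egfl7 (1.83). Vwf, which megakaryocytes also make, ranged from 4.03 in missense-set wild type 1 to 5.79 in missense-set wild type 2, both of the same genotype. Mean levels of 6 members (Erg, Robo4, Slco1c1, Icam2, Kcnj8 and Ndufa4l2) lay below the 25th percentile of all genes, so 33 members remained under a filter at that level, 30 of them higher in null.

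Other genes of vessel growth were read from lists of ligands, partners and regulators. Among 12 Vegf and angiopoietin ligands and partners, 9 were higher in null and 8 in missense, with medians of 0.11 and 0.03, and 0 passed in limma in either comparison. Angpt1, the ligand of Tek made by mural cells, was at 3.90 and 3.81 in wild type and 4.23 and 4.49 in null, a change of 0.50 (SE 0.18, limma adjusted p = 0.458). Vegfc had a change of 0.49 in null and 0.00 in missense. Pgf, placental growth factor, was at low levels, with a mean of 0.84. It had changes of -1.15 (SE 0.66, limma adjusted p = 0.721) in null and -1.01 (SE 0.54, limma adjusted p = 0.902) in missense. Missense 1 (1.46) lay within the 0.89 to 1.64 of the wild types of its set, and missense 2 and 3 lay below them.

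Of 8 genes of the Wnt7 signal to brain endothelium 6 were higher in each mutant, with medians of 0.35 and 0.09, and 0 passed. The ligand Wnt7a was lower, at 5.21 and 5.23 in wild type and 4.70 and 4.29 in null, a change of -0.73 (SE 0.17, limma adjusted p = 0.164). It was also lower in missense, at 5.42, 5.54 and 5.52 in wild type and 5.11, 5.0 and 4.82 in missense, a change of -0.52 (SE 0.13, limma adjusted p = 0.884). All mutant samples lay below all wild types of their set for Wnt7a. Wnt7b had changes of 0.28 and 0.01. Lef1, a nuclear effector and target of the pathway in many cells, had changes of 0.47 in null (SE 0.11, limma adjusted p = 0.190) and 0.13 in missense.

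Genes of Notch signalling and arteries had 7 of 12 higher in null and 6 in missense, with medians of 0.17 and 0.02, and 0 passed. Cxcr4, a chemokine receptor of endothelial tips and of migrating neurons, and Jag1, a Notch ligand, had null changes of 0.52 and 0.36, and Efnb2, an arterial ephrin that neural progenitors also make, of -0.35. Genes of mural recruitment and Tgf-beta signalling had 11 of 12 higher in null, with a median of 0.42, and 7 in missense, with a median of 0.01, and 0 passed. Pdgfb, the ligand of Pdgfrb, was at 3.15 and 3.10 in wild type and 3.78 and 3.6 in null, a change of 0.56 (SE 0.23, limma adjusted p = 0.531), against -0.29 in missense. The missense-set wild types had Pdgfb at 3.53, 3.8 and 3.89, so both null samples lay within their range. Tgfbr2, the Tgf-beta receptor, had a change of 0.68 in null and 0.01 in missense, and Smad6, a feedback inhibitor of Bmp signalling, of 0.24 and 0.56. The wild types of the missense set minus those of the null set gave 0.61 for Pdgfb, 0.49 for Tgfbr2 and -0.32 for Smad6.

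Of 16 further genes listed for endothelium 12 were higher in null and 11 in missense, with medians of 0.29 and 0.05, and 0 passed. The list holds Sox11, at a mean of 10.83, which is not specific to endothelium. Sox11 was among the 4 lower in null and the 5 lower in missense, with changes of -0.25 and -0.09. Aplnr, the apelin receptor of endothelium, was at 5.32 and 5.02 in wild type and 5.56 and 5.89 in null, a change of 0.55 (SE 0.16, limma adjusted p = 0.308). Mmrn1, of lymphatic and venous endothelium and platelets, had a null change of 1.64, with wild types of 1.24 and 2.68. The null samples had Mmrn1 at 3.26 and 3.92 and the missense-set wild types at 3.3, 3.36 and 2.62. Smooth muscle genes were higher in 6 of 6 in null and 3 in missense, with medians of 0.36 and 0.00. Their summed level was 60.3 and 59.4 CPM in the null-set wild types, 56.8 in null 1 and 94.1 in null 2. Cnn1 and Des were at low levels, with means of -0.48 and 0.02. Acta2, smooth muscle actin, had changes of 0.44 and -0.21, and Myh11, the defining myosin, was at the floor in 6 of 10 samples. Acta2 was at 4.04 and 3.99 in null-set wild types, 4.79, 4.49 and 4.64 in missense-set wild types and 4.13 and 4.77 in null.

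Markers of other cells were also at higher levels in the null samples, and their part in the result was not tested. The 16 microglia and macrophage genes were all higher in null, with a median of 1.01, and their summed level was 84.0 and 89.4 CPM in wild type and 167 to 175 in null. The 20 mesenchyme and meninges genes had 19 higher, a median of 0.57 and summed levels of 2220 to 2600 CPM in wild type and 3200 to 4160 in null. The 13 measured erythroid genes had 11 higher, a median of 0.28 and summed levels of 5430 to 8590 in wild type and 7440 to 8850 in null, and the 5 measured platelet genes had 5 higher, with a median of 0.30 and sums of 16.3 to 20.3 and 20.2 to 24.7. No gene of these lists stood at the floor in all samples.

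The plot of lists by sample shows that null 1 and null 2 were alike in microglial genes, at 1.02 and 0.99 above the wild types of the set for the median gene, but not in endothelial genes, at 0.14 and 0.54. Mesenchymal genes stood at 0.45 and 0.68 and smooth muscle genes at 0.12 and 0.67 in null 1 and null 2. In the missense samples microglial genes had a median of 0.49, with 13 of 16 higher, and summed levels of 104 to 126 CPM in wild type and 136 to 174 in missense. Mesenchymal genes had a missense median of 0.30, with 19 of 20 higher, and sums of 2300 to 3630 and 2890 to 3840. The endothelial median in the same comparison was -0.01. Among other members, Fli1, Cd34, Erg and Vwf are shared with blood cells and Anpep with mesenchyme, so levels can hold RNA of more than one cell type. The 3 pericyte genes with both null samples above both wild types were Pdgfrb, Anpep and Foxf2. Whether mesenchyme contributed to their levels was not tested.

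**Figure D4:**
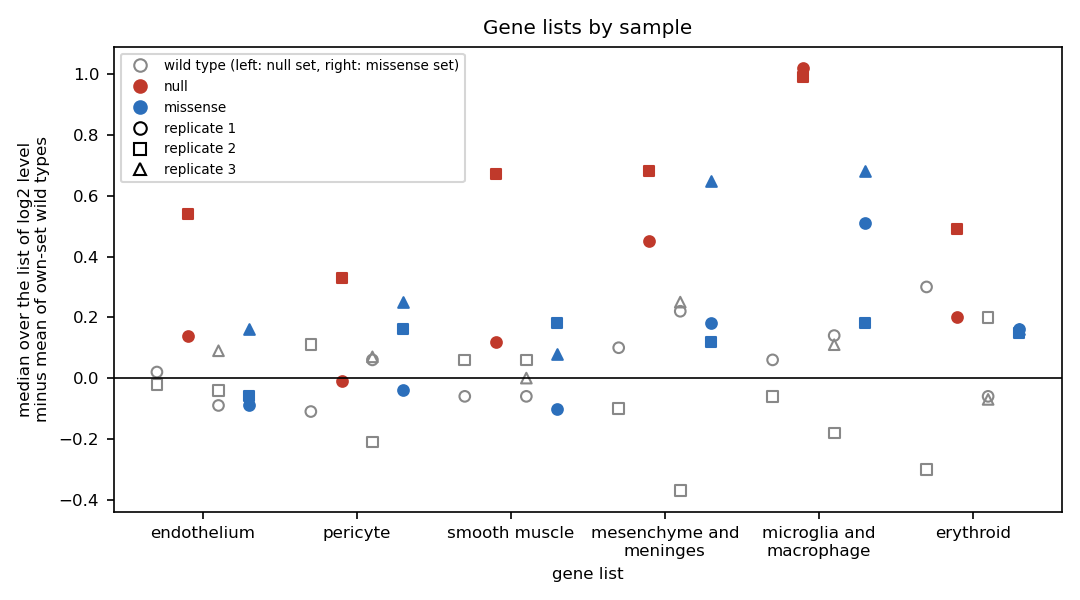
For 6 gene lists, the median over the list of each sample's log2 level minus the mean of its own-set wild types, with open symbols for wild types, red for null and blue for missense and the shape giving the replicate. Null 1 and null 2 coincide near 1.0 for microglia and macrophage genes and lie apart, at 0.14 and 0.54, for endothelium.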

How the data were processed

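The deposited table holds 1 log2 value per gene and sample, filtered and normalized by the authors, per the file name. Its unit was read from the values as log2 CPM with a small offset, since back-transformed totals lay between 1000453 and 1000891. The build is GRCm39 per the submitters' processing notes, while the aligner, the counting tool and the gene models were not given in the sources used here. Whole reads could not be recovered, so depth and counting error are unknown and the number of samples limits precision. Of 14797 genes, 1 without a name was left out.

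The 14796 named genes were fitted in limma 3.58.1 (R 4.3.3) with 4 groups, genotype by title number, trended variances, 6 residual and 4.83 prior degrees of freedom. Tests were 2-sided with Benjamini-Hochberg adjustment over all genes at 0.05. On simulated data with each gene's residual spread over 14796 genes, true log2 changes of 0.5, 1 and 2 were called in 18%, 40% and 76% of cases for null and in 20%, 50% and 80% for missense, with 6 false calls each. Many genes were changed at once there, by up to 4, and the adjustment is more lenient when more genes change. In the data 24 genes passed in null and 3 in missense, so these shares may be too high for the members.

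Members and lists were chosen with earlier results of these data known. Change, SE and p are given for members with an unadjusted p under 0.05 in a comparison, or the 5 of smallest p, and for up to 3 genes of each other list. Values of further members that are given without a p were chosen to describe the list. Symbols missing from the table were looked up by synonym, and 1 listed tissue marker is not reported here. Figures and summaries used Python 3.11.15, pandas 2.3.3 and matplotlib 3.10.9.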

Additional observations from a re-analysis of the deposited data

How the results depend on the processing

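The fit was repeated without the title-number term, after quantile normalization or median centring, with only genes at or above the 25th percentile of mean level, without a variance trend, with robust variances, with array weights, with the samples of 1 title number alone, with 1 CPM added before the log and without each of the 10 samples. In every limma fit 0 members passed an adjusted p of 0.05, in each comparison and direction. No scaling moved the median of all genes by over 0.1.

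When 1 sample was left out, the median change of the members ran from 0.13 (without null 2) to 0.51 (without null 1) in null, from -0.07 to 0.09 in missense, from 0.11 (without null 2) to 0.47 (without null 1) in the difference between the mutants and from 0.08 to 0.24 between wild types. A lone sample left in a group was assumed to have the spread of the others. In the other alternatives the null median lay between 0.22 and 0.28. At an unadjusted p under 0.05, the null count of 6 members and the count of 4 in the difference depended on which sample of the null set was left out. The missense count of 1 higher and 1 lower was 0 to 2 and 0 to 1, and the count of 2 between wild types was 1 with the filter or quantile normalization. Without a variance trend Tek joined Slco1c1 and Gpr116 under an unadjusted p of 0.05 between wild types, so that count also rose. With quantile normalization Fli1 and Anpep were no longer under it in null. The share of all genes in these repeated fits is not given, so these counts have no background beside them.

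Of 379 comparisons of a named member with an alternative, 1 reversed: Slco1c1 in the difference between the mutants was -0.33 without the title-number term (3.30 with it), where the low wild types of the null set are pooled with the others. Adjusted p over the alternatives ran from 0.142 to 0.792 for Slco1c1 and from 0.14 to 0.719 for Egfl7 in null. Within a set no paired analysis was possible because no mutant shares its sample number, the last part of a title, with a wild type of its set. The 2 wild-type groups share 1 such number, and across sets the labels do not say that a shared number marks a pair.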
